A study of Mus musculus with 2 samples.

Results

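Immature non-dividing neutrophils were taken here as barcodes that carried transcripts of neutrophil specific granules and of the S100 proteins but almost no transcripts of cell division. A barcode was a member when Camp, Ngp and Ltf together took at least 0.5% of its unique molecular identifiers (UMIs, the counted RNA molecules), S100a8 and S100a9 together at least 1%, Mki67 and Top2a together had at most 1 UMI, and Csf1r, Cd3e and Cd79a had 0. The rule applied to barcodes with at least 200 genes, at most 20% mitochondrial UMIs and at most 10% haemoglobin UMIs. It found 1274 cells among 27478 barcodes that passed those filters, and among 49230 deposited barcodes. Of these cells, 1202 came from the library of floxed mice without Cre (WT) and 72 from the library of mice with Cre (KO).

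The study compared Alb-WT Bicd2fl/fl with Alb-Cre Bicd2fl/fl mice, in which Cre is driven by the albumin promoter. Bicd2 encodes an adaptor that links cargo to the motor dynein. The albumin promoter is active in hepatocytes, so the gene is not targeted in neutrophils themselves, and both genotypes carried the floxed alleles. Mice of both genotypes received 2.5 mg of S-100, a supernatant of liver homogenate emulsified in complete Freund's adjuvant, by intraperitoneal injection every week for 3 weeks, as a model of autoimmune hepatitis. Per the series text the cells were living immune cells of the liver, taken from a Percoll gradient after red cell lysis, sorted and pooled. The sample labels instead name peritoneal immune cells and carry a treatment tag of HFD in both groups, and nothing in the sources used here settles this. The number and age of the mice are not given in those sources. Each genotype had 1 library, so no difference below has a replicate check, no test between genotypes exists, and genotype and library cannot be told apart. All intervals are 95% intervals and cover counting error only.

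Neutrophils mature in the bone marrow through promyelocytes, which divide and fill azurophil (primary) granules with enzymes such as elastase, and through myelocytes and metamyelocytes, which fill specific (secondary) granules with lactoferrin and cathelicidin. Division stops at about the metamyelocyte stage, and band and segmented cells then fill gelatinase (tertiary) granules and gain chemokine receptors before they leave the marrow. The transcription factor C/EBP-epsilon drives the specific granule genes. Immature neutrophils are released early when demand is high, as in inflammation, and reach blood, spleen and liver. Neutrophils also respond to interferon-gamma, a cytokine of T and NK cells that induces the transcription factor IRF1.

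The promoters of 4 specific granule genes and 4 genes induced by interferon-gamma are shown first, because these groups of genes gave the contrast on which the results turn: the first group defines the cells, and the second differed most between the libraries. Each line gives the 250 bases before the annotated start of the gene, 5′ to 3′ on the gene's strand, from the RefSeq promoter table of build GRCm38.p6, which is not the mm39 build that the submitters name. For the granule genes, capitals mark TTGCNNAA on either strand, a core form of the C/EBP motif. Camp encodes cathelicidin, Ngp neutrophilic granule protein, Ltf lactoferrin and Lcn2 lipocalin-2. Camp lies on chromosome 9 (109849457 to 109849706, minus strand), Ngp on chromosome 9 (110419558 to 110419807, plus strand), Ltf on chromosome 9 (111019042 to 111019291, plus strand) and Lcn2 on chromosome 2 (32387740 to 32387989, minus strand).
Camp: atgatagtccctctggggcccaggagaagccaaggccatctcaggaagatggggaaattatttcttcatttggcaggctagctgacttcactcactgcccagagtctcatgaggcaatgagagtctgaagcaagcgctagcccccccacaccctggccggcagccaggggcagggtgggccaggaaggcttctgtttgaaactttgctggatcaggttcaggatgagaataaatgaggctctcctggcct
Ngp: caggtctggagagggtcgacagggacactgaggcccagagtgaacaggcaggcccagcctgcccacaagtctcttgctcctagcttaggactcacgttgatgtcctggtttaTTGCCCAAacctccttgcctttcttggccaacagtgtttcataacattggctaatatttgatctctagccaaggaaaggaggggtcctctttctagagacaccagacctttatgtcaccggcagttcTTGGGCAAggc
Ltf: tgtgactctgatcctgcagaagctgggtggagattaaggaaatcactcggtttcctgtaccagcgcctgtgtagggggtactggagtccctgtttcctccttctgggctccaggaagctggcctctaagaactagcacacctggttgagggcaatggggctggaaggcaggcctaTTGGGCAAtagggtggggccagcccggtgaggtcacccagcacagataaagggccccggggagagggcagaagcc
Lcn2: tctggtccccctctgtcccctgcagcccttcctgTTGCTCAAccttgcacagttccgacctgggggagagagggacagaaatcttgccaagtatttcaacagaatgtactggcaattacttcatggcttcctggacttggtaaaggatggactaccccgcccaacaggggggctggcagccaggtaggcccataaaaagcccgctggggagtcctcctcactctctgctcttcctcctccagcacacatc

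For the interferon genes, capitals mark GAAANNGAAA (the core of the interferon-stimulated response element, ISRE, bound by IRF proteins) or TTCNNNGAA (the core of the gamma-activated site, GAS), on either strand. Gbp2 and Gbp7 encode guanylate-binding proteins, Igtp an immunity-related GTPase and Irf1 a transcription factor. The windows are those of Gbp2 on chromosome 3 (142620413 to 142620662, plus strand), Gbp7 on chromosome 3 (142530086 to 142530335, plus strand), Igtp on chromosome 11 (58199306 to 58199555, plus strand) and Irf1 on chromosome 11 (53769764 to 53770013, plus strand).
Gbp2: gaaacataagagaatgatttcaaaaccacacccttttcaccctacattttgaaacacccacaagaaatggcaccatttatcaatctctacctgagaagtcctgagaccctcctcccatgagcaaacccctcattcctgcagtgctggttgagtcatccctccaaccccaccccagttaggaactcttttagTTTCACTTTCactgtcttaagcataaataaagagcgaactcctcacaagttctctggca
Gbp7: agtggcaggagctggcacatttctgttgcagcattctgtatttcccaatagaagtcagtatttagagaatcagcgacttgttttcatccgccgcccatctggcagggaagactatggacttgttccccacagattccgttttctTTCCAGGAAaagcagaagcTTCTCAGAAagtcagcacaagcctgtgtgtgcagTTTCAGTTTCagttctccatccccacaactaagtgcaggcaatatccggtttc
Igtp: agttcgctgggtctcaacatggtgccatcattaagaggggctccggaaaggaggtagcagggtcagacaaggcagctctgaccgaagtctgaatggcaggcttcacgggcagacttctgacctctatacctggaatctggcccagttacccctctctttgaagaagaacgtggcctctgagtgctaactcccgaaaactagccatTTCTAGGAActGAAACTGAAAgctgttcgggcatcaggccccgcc
Irf1: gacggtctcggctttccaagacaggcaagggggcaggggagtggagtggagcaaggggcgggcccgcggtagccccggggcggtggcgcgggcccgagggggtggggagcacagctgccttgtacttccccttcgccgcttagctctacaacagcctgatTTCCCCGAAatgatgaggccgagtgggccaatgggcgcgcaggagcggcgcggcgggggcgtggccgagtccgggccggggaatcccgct

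TTGCNNAA was found in Ngp from 138 to 131 and from 11 to 4 bases before the start, in Ltf from 75 to 68 and in Lcn2 from 216 to 209, and not in the window of Camp. The ISRE core was found in Gbp2 from 59 to 50, in Gbp7 from 53 to 44 and in Igtp from 34 to 25 bases before the start. The GAS core was found in Gbp7 from 106 to 98 and from 87 to 79, in Igtp from 45 to 37 and in Irf1 from 90 to 82. Of all 32851 promoter windows of this length in the table, 9.56% held TTGCNNAA, 2.98% the ISRE core and 7.02% the GAS core. Of 13 measured specific granule genes, 11 had a window and 4 of those (36.4%) held TTGCNNAA, against 10.8% of 27025 genes. Of 24 measured interferon-gamma genes, 15 had a window and 12 of those (80%) held an ISRE or GAS core, against 11.1% of all genes. Of 20 measured genes of MHC class I, 17 had a window and 4 (23.5%) held either core. A match is a description of the letters and no evidence of binding in these cells.

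Among barcodes that passed the filters, 1202 of 16666 (7.21%, exact binomial interval 6.82 to 7.62) were members in WT and 72 of 10812 (0.666%, 0.521 to 0.838) in KO. The KO share was 10.8-fold lower (8.55 to 13.7). Mature neutrophils, defined here by the same criteria but less than 0.5% of UMIs from Camp, Ngp and Ltf and at least 1 UMI of Csf3r or Cxcr2, made up 15.1% of barcodes in WT (2514 cells) and 11.5% in KO (1245 cells), which was 1.31-fold lower (1.23 to 1.40). There were 47.8 members per 100 mature neutrophils in WT and 5.78 in KO, 8.27-fold fewer (6.46 to 10.6). Dividing precursors, which met the membership rule but for at least 2 UMIs of Mki67 and Top2a, numbered 395 in WT and 10 in KO. That was 32.9 per 100 members in WT and 13.9 in KO, 2.37-fold fewer (1.21 to 4.63). The limit of 2 UMIs is harder to reach in shallow cells, and members were shallower in KO (median 2911.5 UMIs, against 3511.5 in WT). The shallowest dividing cell had 516 UMIs in WT and 3479 in KO. The part of depth in the ratio of dividing cells to members was not tested. The order of the 3 stages by abundance was the same in both libraries, and the stages before the mature one were the scarcer in KO.

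**Figure D1:**
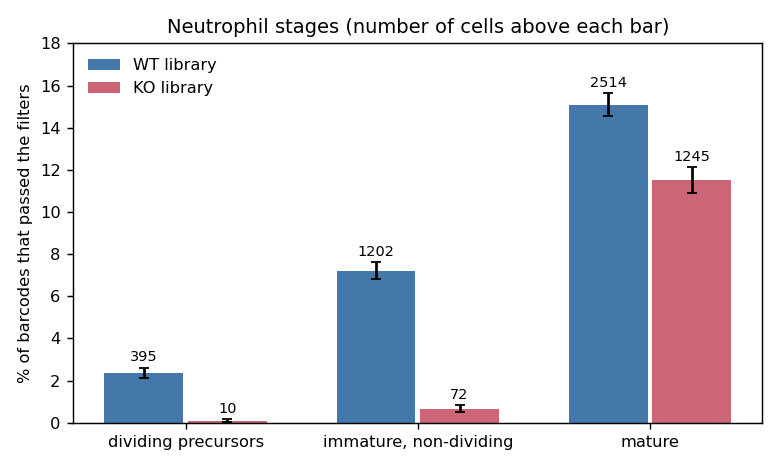
Share of barcodes that passed the filters (%, y axis) in 3 neutrophil stages, with WT and KO bars side by side, exact 95% binomial intervals and the number of cells above each bar. Immature non-dividing neutrophils were 7.21% of WT and 0.666% of KO barcodes, while mature neutrophils were 15.1% and 11.5%.

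Some of these values moved with the limit on haemoglobin, which was unequal between the libraries: its median share of a barcode's UMIs was 0.71% in WT and 1.97% in KO over all barcodes that passed, 0.58% and 1.35% in members, and 0.88% and 2.78% in mature neutrophils. With at most 1% haemoglobin UMIs allowed, KO kept 14 members and 12 mature neutrophils and WT 915 and 1545. The members' share then stayed lower in KO (log2 ratio -2.72, against -3.44 as reported), while members per mature neutrophil turned the other way (log2 ratio 0.98, against -3.05 as reported). Without haemoglobin UMIs in any share and without the haemoglobin filter, members were 8.06% of 20056 barcodes in WT (1617 cells) and 0.663% of 17509 in KO (116 cells). The libraries shared 177 barcode sequences, but no barcode was a member in both. Scrublet, which scores likely doublets, marked 241 WT members (20.0%) and 4 KO members (5.56%). With all marked barcodes left out, members were 6.71% in WT (961 cells) and 0.677% in KO (68 cells).

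The cells carried the other markers of their label. Lcn2 was seen in 97.9% of WT and 97.2% of KO members, Dach1 in 77.0% and 72.2%, and Ly6g, the surface antigen used to sort mouse neutrophils, in 67.9% and 52.8%. Because depth differed (median 3511.5 UMIs and 1244 genes per cell in WT, 2911.5 and 1114.5 in KO), these shares were also taken at an equal depth of 1000 UMIs, drawn at random from each cell, so that 129 members of WT and 7 of KO were too shallow to enter. Thinned, Ly6g was seen in 44.1% of WT members (41.1 to 47.1) and 29.2% of KO members (18.6 to 41.8), and Dach1 in 48.4% and 49.2%. Summed over cells, Ly6g was at 742 CPM (counts per 1000000 UMIs of the members) in WT and 425 in KO, 1.75-fold lower (1.41 to 2.18). The share after thinning in B cells, which lack these genes and had median depths of 2794 UMIs in WT and 2017.5 in KO, gave 2.26% and 0.23% for Ly6g and 1.69% and 0.34% for Dach1. Cd177, another neutrophil surface protein, was seen in 61.8% of thinned WT members and 67.7% of thinned KO members, and the collagenase gene Mmp8 in 64.2% and 63.1%. Among markers of other lineages, the erythroid ones were high in both libraries and higher in KO. The 8 erythroid markers, mostly haemoglobin, summed to 6431 CPM in WT and 18808 in KO and were seen in 100% of members of both. Markers of the other immune lineages and of hepatocytes were at lower levels than the erythroid ones, and not all were lower in KO. The 5 plasmacytoid dendritic cell markers summed to 55.5 CPM in WT and 82.1 in KO, and the 4 plasma cell markers to 78.7 and 87.0. The 5 mast cell and basophil markers reached 3.07 and 9.66 CPM and the 4 platelet and megakaryocyte markers 2.63 and 19.3, from 2 and 4 KO UMIs. On the CPM scale and summed, 8 T-cell markers reached 153 CPM in WT and 48.3 CPM in KO, 7 NK and innate lymphoid markers 151 and 48.3, and 6 B-cell markers 30.7 and 24.2. Cd3e and Cd79a are at 0 by the rule. Of the other T-cell markers Cd3d and Cd8a, and of the NK markers Eomes, Prf1 and Gzma, were at 0 in KO. In WT these had 114, 18, 15, 34 and 164 UMIs. KO members held far fewer UMIs in all, so a 0 says little for the low ones. The 8 dendritic cell markers summed to 368 CPM in WT and 179 in KO. The 10 monocyte and macrophage markers summed to 987 CPM in WT and 551 in KO, but Ly6c2, which immature neutrophils share, gave most of this. The other 9 summed to 83.7 and 19.3 CPM. Among them C1qa, C1qb, C1qc, Adgre1 and F13a1 were at 0 in KO, with only 6, 9, 7, 32 and 54 UMIs in WT. Cx3cr1 was at 7.23 CPM in WT and 14.5 in KO, from 3 KO UMIs. The 6 hepatocyte markers summed to 7.89 and 4.83 CPM.

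**Figure D2:**
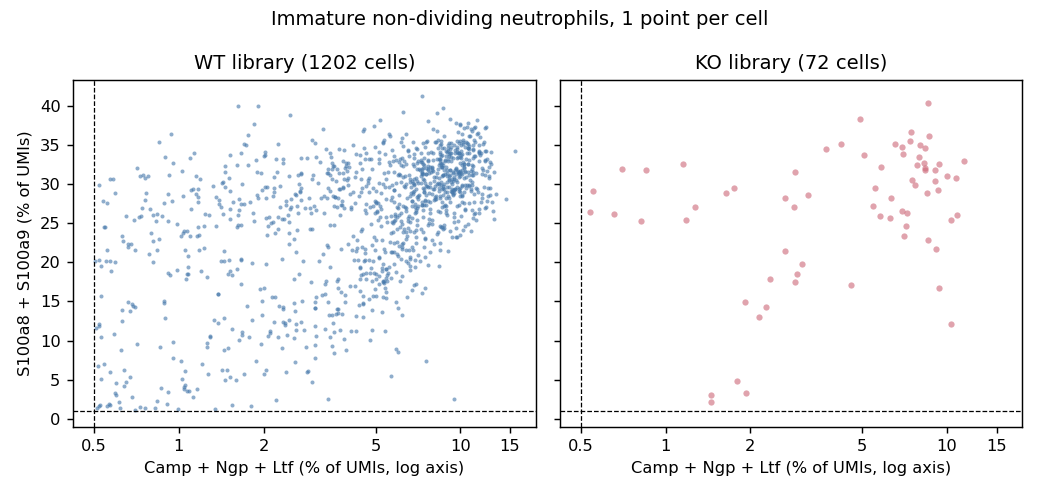
Share of UMIs from Camp, Ngp and Ltf (%, log x axis) against that from S100a8 and S100a9 (%, y axis), 1 point per cell, with the WT library on the left and the KO library on the right and dashed lines at the 0.5% and 1% limits of the rule. In both libraries most cells lie above 5% on the x axis (663 of 1202 in WT and 41 of 72 in KO).

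The values that chose the cells were similar in the libraries and are a description only. Camp, Ngp and Ltf took a median of 5.61% of a member's UMIs in WT and 6.07% in KO, and S100a8 and S100a9 27.9% and 28.8%. Camp made up 3.25% of all member UMIs in WT and 2.69% in KO, Ngp 2.56% and 2.57%, and Ltf 0.79% and 0.88%. The lowest member had a granule share of 0.51% in WT and 0.54% in KO, and the highest barcode outside 0.50% and 0.46%. In the range from 0.4% to 0.5% just outside there were 57 WT barcodes and 1 KO barcode, with Lcn2 in 73.7% of the former, and in the range from 0.5% to 0.6% just inside there were 35 and 2, with Lcn2 in 80% and 100%. In WT the limit thus cut a continuous range, whereas few KO barcodes lay near it.

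To compare gene levels, UMIs were summed over all members of a library (4562198 in WT and 206988 in KO) and scaled to CPM. Log2 ratios divide the KO level by the WT level after adding 1 CPM to each, and are below 0 where KO is lower. In KO 1 UMI equals 4.83 CPM, so low genes were poorly measured there. Among 8448 genes with at least 20 summed UMIs, 19.4% were at least 2-fold lower and 4.49% at least 2-fold higher in KO, with a median log2 ratio of -0.10, and 939 of these genes had 0 UMIs in KO. Among 4413 genes with at least 100 summed UMIs the shares were 9.34% and 1.54% and the median was -0.02. In mature neutrophils, where KO held 1245 cells, 5.9% of 9471 genes were at least 2-fold lower and 3.17% at least 2-fold higher. These shares are the background against which each list below is read.

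The specific granule genes that the rule did not use were at close levels in the libraries. Of 10 measured, 0 were past 2-fold in either direction, against 19.4% lower and 4.49% higher of all genes, and the median log2 ratio was -0.18. Lcn2 was at 9871 CPM in WT and 7938 in KO (ratio 0.765 to 0.845 by its interval), the collagenase gene Mmp8 at 2350 and 2652, the haptoglobin gene Hp at 1494 and 1788, and Cd177 at 1046 and 981. Chil3, which encodes a chitinase-like lectin, was at 3514 CPM in WT and 2937 in KO, Pglyrp1, a peptidoglycan recognition protein, at 3662 and 2913, and Lyz2, lysozyme, at 7277 and 5870. In mature neutrophils the same list had a median of -1.02. There 5 of 9 genes (55.6%) were at least 2-fold lower in KO, against 5.9% of all genes, among them Chil3 (170 and 46.4 CPM) and Cybb (253 and 78.0 CPM). Barcodes below the granule limit, before that on Csf3r or Cxcr2, lay nearer to it in WT. From 0.2% to 0.3% there were 224 in WT and 1 in KO, and from 0.3% to 0.4% 117 and 2. WT Lcn2 was at 1758 CPM under 0.1% and 5163 CPM from 0.4% to 0.5%. The part of such cells in the mature values was not tested. Free RNA from other cells was estimated from S100a8 and S100a9 in B cells. It came to 173 UMIs per WT cell and 80.1 per KO cell, and its part in the values of mature cells was not tested.

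Gelatinase granule genes and subunits of the phagocyte NADPH oxidase were also close. Of 11 tertiary granule genes 2 (18.2%) were at least 2-fold lower in KO and 0 higher, near the 19.4% and 4.49% of all genes, with a median of -0.03. The gelatinase gene Mmp9 was at 1636 CPM in WT and 1855 in KO, the integrin gene Itgam at 970 and 1000, and Padi4, which citrullinates histones, at 352 and 425. The antiprotease gene Slpi was the better measured of the lower pair, at 961 CPM in WT (4382 UMIs) and 464 in KO (96 UMIs), 2.07-fold lower (1.69 to 2.56). The other was Cd14, with 113 UMIs in WT and 1 in KO. Of 9 oxidase genes 0 were past 2-fold, and the median was -0.05. Cybb, the catalytic subunit, was at 1989 and 1923 CPM, and Ncf1, a cytosolic subunit, at 818 and 942, while the GTPase gene Rac2 was at 853 CPM in WT and 551 in KO.

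Primary granule genes had few UMIs in these cells, and those of the promyelocyte enzymes were in WT only. Elane, which encodes neutrophil elastase, had 377 UMIs in WT and 0 in KO, at least 5.70-fold lower against 3 counts over the KO members. Prtn3, proteinase 3, had 217 and 0 (at least 3.28-fold lower), and Mpo, myeloperoxidase, 86 and 0 (at least 1.30-fold lower). Elane UMIs came from 6.41% of WT members, and 1 cell held 93 of them. At 1000 UMIs per cell Elane was seen in 2.89% of 1073 WT members (1.97 to 4.08) and in 0 of 65 KO members (exact interval up to 5.52%), against 0.75% of WT and 0 of KO B cells. The 3 counts that a count of 0 allows would be 4.62% of KO cells with a UMI at that depth, above the WT share, so a difference in that share was not detectable. Of the 12 measured genes of the list 8 (66.7%) were at least 2-fold lower in KO and 0 higher, against 19.4% and 4.49% of all genes. The median was -2.002, or -0.40 with the 5 genes at 0 in KO set at their bound. Srgn, the proteoglycan serglycin of the granule core, was at 404 CPM in WT and 150 in KO, 2.70-fold lower (1.89 to 3.98). The 7 early myeloid markers, which include Elane, Mpo and Prtn3, summed to 189 CPM in WT and 14.5 in KO.

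Factors of granulocyte development were mostly close, while Cebpe and Gfi1 were higher in KO. Cebpe, which encodes C/EBP-epsilon, was at 178 CPM in WT (813 UMIs) and 295 in KO (61 UMIs), a ratio of 1.65 (1.25 to 2.15), and Gfi1, a repressor needed for granulopoiesis, had 41 UMIs in WT and 8 in KO, a ratio of 4.3 (1.74 to 9.29). The share of thinned members with a Cebpe UMI was 15.2% (13.1 to 17.5) in WT and 20% (11.1 to 31.8) in KO, against 0.75% and 0.23% in B cells, and those intervals overlap. Of 17 measured factors 3 (17.6%) were at least 2-fold lower and 1 (5.88%) at least 2-fold higher, near the 19.4% and 4.49% of all genes. The median was -0.07. Spi1, the PU.1 gene, was at 528 and 420 CPM, and Cebpb at 193 and 130 CPM. Gfi1 was picked after its value was seen, and its counts are low.

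**Figure D3:**
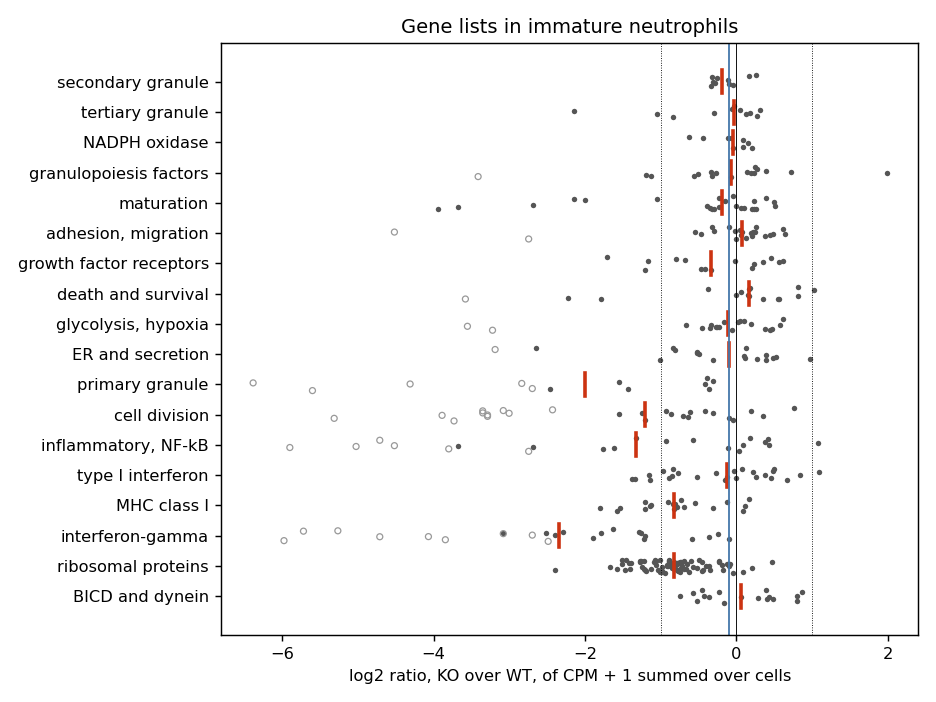
Log2 ratio of KO over WT (x axis, CPM plus 1, UMIs summed over members) for the measured genes of 18 lists (y axis), 1 point per gene, with open points for genes at 0 in KO, whose place depends on the pseudocount. Red bars are list medians, the blue line is the median of all 8448 genes (-0.10), and dotted lines mark 2-fold; the interferon-gamma median lies at -2.34 and the specific granule median at -0.18.

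Genes induced by interferon-gamma were the list with the lowest median. Of 24 measured, 20 were at least 2-fold lower in KO and 0 higher, against 19.4% and 4.49% of all genes, and 24 were below 0. The median log2 ratio was -2.34, or -1.24 with the 9 genes at 0 in KO at their bound. Among the 16 with at least 100 summed UMIs, 13 were at least 2-fold lower, against 9.34%, with a median of -2.04. In members Irf1 was at 191 CPM in WT (870 UMIs) and 77.3 in KO (16 UMIs), 2.47-fold lower (1.51 to 4.34). Gbp2 was at 85.7 CPM in WT (391 UMIs) and 24.2 in KO (5 UMIs), 3.55-fold lower (1.51 to 10.99), and Gbp7 had 233 and 2 UMIs, a ratio of 0.189 (0.0228 to 0.691). Igtp had 214 UMIs in WT and 3 in KO, a ratio of 0.311 (0.0632 to 0.915). Gbp5 had 171 and 0 UMIs (at least 2.59-fold lower), and Cd274, which encodes the checkpoint ligand PD-L1, 115 and 0 (at least 1.74-fold lower). The KO values were low for most of the list.

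Cxcl10, a chemokine for T cells, was the lowest gene by the naming rule, with 283 UMIs in WT and 0 in KO, at least 4.28-fold lower. Its WT UMIs came from 5.57% of members, and 1 cell held 42. Thinned to 1000 UMIs, it was seen in 2.89% of WT members (1.97 to 4.08) against 2.07% of WT B cells, so that the share of cells was not above background beyond counting error. Ly6a, the Sca-1 antigen, had 236 and 0 UMIs (at least 3.57-fold lower), spread over 13.8% of WT members. Thinned, Ly6a was seen in 4.94% of WT members (3.72 to 6.41), well below the 36.3% of WT B cells, and the source of its UMIs was not tested. Summed per cell, the list's genes took a median of 9.42 UMIs per 10000 in WT and 3.11 in KO, with no UMI in 106 WT cells (8.82%) and 29 KO cells (40.3%). The KO cells were shallower, and the part of depth in that share was not tested. In mature neutrophils 24 of 26 measured genes of the list were at least 2-fold lower in KO, against 5.9% of all genes there, with a median of -1.79. Gbp2 was at 934 CPM in WT and 137 in KO mature cells. Left out of the members, marked doublets moved the list's median to -2.38 and cells with over 0.1% of UMIs from other immune lineages moved it to -2.42.

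MHC class I and its peptide supply were lower in KO at higher counts. Of 20 measured genes 7 (35%) were at least 2-fold lower and 0 higher, against 19.4% and 4.49% of all genes. Below 0 were 17, and the median was -0.82. B2m, the light chain of class I molecules, was at 1610 CPM in WT (7345 UMIs) and 937 in KO (194 UMIs), 1.72-fold lower (1.49 to 1.99). H2-K1, a classical heavy chain, was at 1158 and 527 CPM, 2.20-fold lower (1.82 to 2.68), and H2-D1 at 979 and 604 CPM, 1.62-fold lower (1.36 to 1.95). Psmb8, an immunoproteasome subunit, was at 101.5 and 43.5 CPM (2.33-fold lower, 1.22 to 5.14), and Psme2, of the proteasome activator, at 159 and 72.5 CPM (2.19-fold lower, 1.32 to 3.94). Of the peptide transporter genes, Tap1 was at 105 and 58.0 CPM and Tap2 at 116 and 130 CPM, with ratio intervals that overlap (0.284 to 0.976 and 0.732 to 1.65). In mature cells 15 of 20 (75%) were at least 2-fold lower, against 5.9% of all genes there, and the median was -1.27.

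Antiviral genes of the type I interferon response were less uniform. Of 25 measured, 4 were at least 2-fold lower and 1 at least 2-fold higher in KO, near the share of all genes, and the median was -0.12. Among the 19 with at least 100 summed UMIs, 4 (21.1%) were at least 2-fold lower, against 9.34% of all genes, 0 were higher and the median was -0.52. Isg15, a ubiquitin-like modifier, was at 75.6 CPM in WT and 33.8 in KO (345 and 7 UMIs), and Ifitm3, which blocks viral entry, at 1379 and 812 CPM, 1.70-fold lower (1.46 to 1.99). The Schlafen gene Slfn4 was at 492 and 589 CPM, Oas2 at 51.7 and 67.6 CPM, and Rsad2, which encodes viperin, at 38.4 and 53.1 CPM. In mature neutrophils the median was -0.75, with 13 of 27 (48.1%) at least 2-fold lower, against 5.9% of all genes there.

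**Figure D4:**
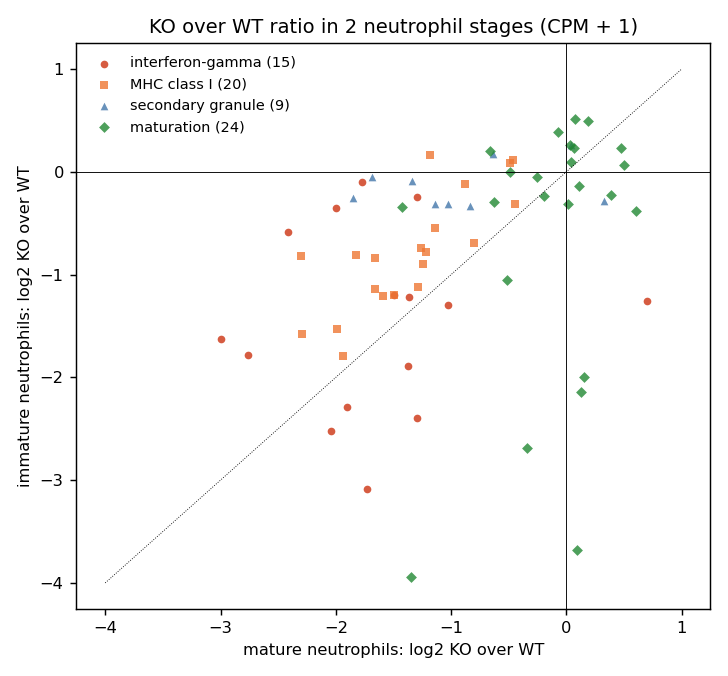
Log2 ratio of KO over WT (CPM plus 1) in mature neutrophils (x axis) and in immature neutrophils (y axis), 1 point per gene with at least 20 summed UMIs in both stages and at least 1 UMI in KO members; the dotted line marks equal ratios. Class I genes lie below 0 on the x axis in all 20 cases and on the y axis in 17, while the specific granule genes lie close to 0 on the y axis and have a median of -1.02 on the x axis.

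Genes of late maturation were mostly close. Of 24 measured, 6 (25%) were at least 2-fold lower and 0 higher, against 19.4% and 4.49% of all genes, with a median of -0.18. The 6 were Il1b, Stfa2l1, Ccl6 and Wfdc17 (138 and 33.8 CPM), with Slpi and Cd14, which are also in the tertiary granule list. The chemokine receptor gene Cxcr2 was at 465 CPM in WT and 556 in KO, the G-CSF receptor gene Csf3r at 464 and 546, and the resistin-like gene Retnlg at 9920 and 7831. Il1b, interleukin-1 beta, had 336 UMIs in WT and 1 in KO, a ratio of 0.0656 (0.00166 to 0.368). In mature neutrophils Il1b was at 1707 CPM in WT and 1824 in KO, a ratio of 1.07 (1.02 to 1.12). Thinned to 1000 UMIs, Il1b was seen in 6.15% of WT members (4.79 to 7.76) and 0 of 65 KO members (up to 5.52%). B cells gave 4.14% in WT and 2.49% in KO, so the WT share of cells was little above that background. Free RNA, estimated as above, came to 39.1 of the 336 WT UMIs of Il1b. The source of the rest was not tested. Stfa2l1, of the stefin A family of cystatins, had 742 UMIs in WT and 2 in KO, a ratio of 0.0594 (0.00718 to 0.215). Outside the list but named by their ratios were Cstdc4, of the same family, and Pla2g7. Cstdc4 had 761 UMIs in WT and 2 in KO, a ratio of 0.0579 (0.00700 to 0.210). For Cstdc4, 1 WT cell held 84 UMIs, and the near-identical copies of this family make the split of reads between them uncertain. Ccl6, a chemokine of myeloid cells, had 737 and 5 UMIs, 6.69-fold lower (2.85 to 20.7), and 162 and 24.2 CPM. Pla2g7, an enzyme that breaks down platelet-activating factor, had 357 and 1 UMIs, a ratio of 0.0617 (0.00156 to 0.346).

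Inflammatory cytokines and NF-kB feedback genes held both lower and close genes. Of 21 measured, 11 (52.4%) were at least 2-fold lower and 1 higher, against 19.4% and 4.49% of all genes. The median was -1.33, or -0.57 with 6 genes at 0 in KO at their bound. Acod1, which makes itaconate, had 268 UMIs in WT and 0 in KO (at least 4.05-fold lower), and Tnf 144 and 0 (at least 2.18-fold lower). Acod1 UMIs were found in 9.82% of WT members, and after thinning in 4.66% (3.48 to 6.10), against 1.69% of WT B cells. Nfkbia, the inhibitor of NF-kB, was at 305 CPM in WT and 314 in KO, Nfkb1 at 177 and 237, and Tnfaip2 at 263 and 343. Ccl5, a chemokine of T and NK cells, had 695 UMIs in WT, of which 1 cell held 73, and 3 in KO, a ratio of 0.0951 (0.0196 to 0.279). With marked doublets left out its log2 ratio was -1.99, against -3.31 as reported. T-cell and NK markers were also higher in WT members, as given above, and their part in the values of Ccl5 and AW112010 was not tested. AW112010, an interferon-induced transcript, had 783 and 4 UMIs, a ratio of 0.113 (0.0306 to 0.289). Etfb, a subunit of a mitochondrial electron carrier, had 229 UMIs in WT and 1 in KO.

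Among genes named by the rule, those higher in KO had smaller ratios than those lower. The rule itself favours this. It asks for at least 50 UMIs in the higher library, which is a far higher level in KO, where 1 UMI equals 4.83 CPM, than in WT. Genes with few KO UMIs, such as Gfi1 above, could not enter on this side. The naming rule left 104 eligible genes on this side and 175 on the lower one, and the 2 counts are not comparable for the same reason. Among the 104, the highest ratio was that of Cdk8, a kinase of the Mediator complex. It was at 613 CPM in WT (2796 UMIs) and 1406 in KO (291 UMIs), a ratio of 2.29 (2.03 to 2.59). Camk1d, a calcium-dependent kinase, followed at 524 and 1048 CPM, a ratio of 2.0004 (1.73 to 2.30). Both were also higher in KO mature neutrophils, Cdk8 at 898 and 1980 CPM and Camk1d at 963 and 1550 CPM. In the 10 KO members with a granule share of 1% to 2%, Cdk8 was at 4476 CPM and gave 85 of its KO UMIs. That range held all KO members marked as doublets. Camk1d and Cmss1 also peaked there, at 2212 and 5424 CPM. Thinned, Cdk8 was seen in 47.2% of WT and 63.1% of KO members, against 91.0% and 96.6% of B cells. For Camk1d these were 39.1% and 61.5%, against 88.5% and 91.1%. The part of other cells in these values was not tested. Hsp90b1, an endoplasmic reticulum chaperone, was at 164 CPM in WT and 324 in KO (ratio 1.98, 1.52 to 2.54), whereas in mature cells it was at 103 and 110 CPM. Adpgk, an ADP-dependent glucokinase, was at 1118 and 1846 CPM in members (ratio 1.65, 1.48 to 1.83) and at 150 and 72.4 CPM in mature cells. The others named by the rule were Eif4g2 (ratio 1.76), Cmss1 (1.72), Cox17 (1.70), Cops9 (1.69), Larp4b (1.68), Rasa2 (1.62) and Dstn (1.61), besides Cebpe. Among regulators of cell death, Bcl2l1, which encodes the survival protein BCL-XL, was at 37.3 CPM in WT and 77.3 in KO (170 and 16 UMIs, ratio 1.16 to 3.47 by its interval), and Bcl2 at 65.3 and 116 CPM (ratio 1.12 to 2.69). Of 16 genes of that list 3 (18.75%) were at least 2-fold lower and 1 (6.25%) higher, near the 19.4% and 4.49% of all genes.

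Of the remaining lists, ribosomal protein genes were lower in KO at high counts, and genes of cell division rested on few. Each count of lower genes in this paragraph is to be read against 19.4% of all genes at least 2-fold lower and 4.49% higher. Of 82 cytosolic ribosomal protein genes 26 (31.7%) were at least 2-fold lower and 0 higher. Below 0 were 79, and the median was -0.82, against -0.24 and 0 genes past 2-fold in mature cells. Among the 80 with at least 100 summed UMIs, 25 were at least 2-fold lower, against 9.34% of all genes. Summed, the list was at 33395 CPM in WT and 21422 in KO. Its median was -0.60 without marked doublets and -0.52 without haemoglobin UMIs and filter. Adhesion and chemoattractant receptor genes had 2 of 23 at least 2-fold lower and a median of 0.07, with the chemokine receptor gene Ccr1 at 147 CPM in WT and 227 in KO. Glycolysis and hypoxia genes had 2 of 20 lower and a median of -0.11, endoplasmic reticulum and secretory genes 3 of 18 lower and -0.10, and growth factor receptors with their signalling 3 of 15 lower and -0.34. With at least 100 summed UMIs the median turned to 0.21 for the 9 growth factor receptor genes, to 0.11 for the 13 secretory genes, to 0.04 for the 12 granulocyte factors and to -0.17 for the 11 BICD and dynein genes. Genes of cell division had 13 of 25 (52%) lower and 0 higher, a median of -1.20, and -0.04 with the 10 genes at 0 in KO at their bound. Among the 8 with at least 100 summed UMIs, 3 (37.5%) were lower, against 9.34% of all genes, and the median was -0.90. Tuba1b, an alpha-tubulin gene, had 177 UMIs in WT and 0 in KO (at least 2.68-fold lower), while Hmgb2, a chromatin protein high in dividing precursors, was at 1564 and 1783 CPM. Genes of BICD adaptors and dynein had 0 of 17 past 2-fold and a median of 0.06. Bicd2 itself had 40 UMIs in WT and 1 in KO, a ratio of 0.551 (0.0136 to 3.25), too few to compare, and a value in neutrophils does not measure the deletion in hepatocytes.

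Members varied along the range of their granule transcript share. The share ranges are cut from a value that the rule uses and are no cell types, and since shares sum to a whole, other genes move with them. Cells with 0.5% to 1% numbered 108 in WT and 6 in KO, those with 1% to 2% 136 and 10, those with 2% to 5% 295 and 15, those with 5% to 10% 513 and 36, and those with over 10% 150 and 5. In WT the summed level of the maturation list was 47417, 37544, 24828, 10342 and 4583 CPM from the lowest to the highest granule share, and in KO 46553, 21854, 17794, 8417 and 2294 CPM. The order of the ranges was the same in both libraries. Interferon-gamma genes in WT were at 2484, 2181, 1822, 1096 and 585 CPM over the same ranges and in KO at 512, 948, 513, 471 and 248 CPM, lower than WT in each of the 5. The KO ranges held only 17593, 18990, 31190, 123087 and 16128 UMIs of all genes. These KO levels thus rest on few UMIs, and no intervals were taken for them. MHC class I genes were at 7363 CPM in the lowest and 4607 in the highest range in WT, and at 4093 and 2356 in KO. Cells marked as doublets were 27.8%, 29.4%, 33.9%, 13.3% and 2.0% of WT members over the ranges. In KO all 4 lay in the range from 1% to 2%, where they were 40% of the 10 cells and where the KO level of interferon-gamma genes was highest. The KO sums of T-cell and dendritic cell markers were also highest there, at 316 and 1001 CPM.

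**Figure D5:**
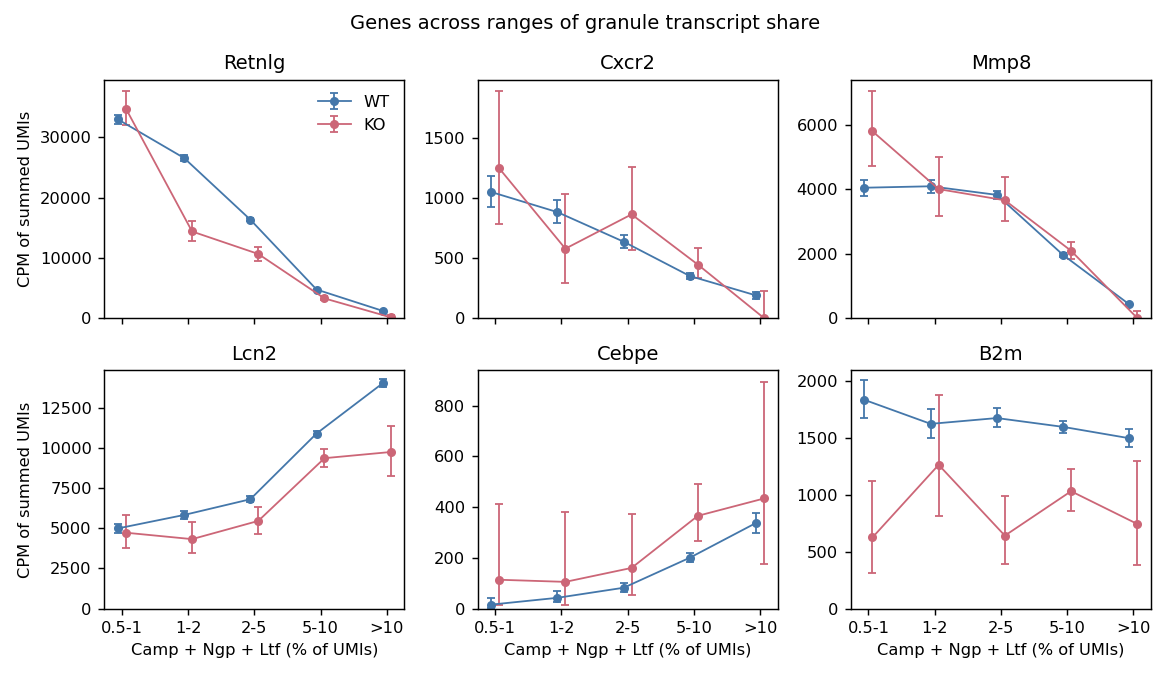
Level of 6 genes (CPM of summed UMIs, y axis, each panel from 0) in 5 ranges of the share of UMIs from Camp, Ngp and Ltf (x axis, %), for WT and KO, with exact 95% Poisson intervals as bars. Retnlg, Cxcr2 and Mmp8 are lowest in the highest range in both libraries, Cebpe is highest there, and B2m is lower in KO in each range, with overlapping intervals in the second.

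Members and mature neutrophils differed in many genes in both libraries. Of 3617 genes compared, 143 were at least 2-fold higher and 730 at least 2-fold lower in members in both, and 0 were past 2-fold on opposite sides. In WT alone 22 were past 2-fold higher and 152 lower, and in KO alone 107 and 500. KO members held 206988 UMIs against 4562198 in WT, so low genes were measured less exactly there. The counts for WT alone and KO alone are therefore not comparable. The rule itself sets the direction of granule genes, and the comparison of the 2 stages is a description. Cebpe was at 178 CPM in members and 6.91 in mature cells of WT, and at 295 and 4.22 in KO. Serpinb1a, an inhibitor of elastase-like proteases, was at 615 and 27.6 CPM in WT and 696 and 10.5 in KO, and Abca13, a lipid transporter gene, at 485 and 34.5 CPM in WT and 696 and 11.95 in KO. Lta4h, which makes leukotriene B4, was at 391 and 32.1 CPM in WT and 522 and 27.4 in KO, and the oxidase gene Cybb at 1989 and 253 CPM in WT and 1923 and 78.0 in KO. On the other side, Wfdc17, an antiprotease-like gene, was at 138 CPM in members and 3385 in mature cells of WT, and at 33.8 and 3769 in KO. The pattern-recognition receptor gene Clec7a was at 22.8 and 431 CPM in WT and 4.83 and 456 in KO. Compared with dividing precursors in WT, members had less Elane (82.6 against 997 CPM), Stmn1 (34.6 against 668 CPM) and Hmgb2 (1564 against 5070 CPM), and more Mmp8 (2350 against 160 CPM), Mmp9 (1636 against 180 CPM), Retnlg (9920 against 501 CPM) and Cxcr2 (465 against 85.1 CPM). KO had 10 dividing cells, which gave 1783 CPM of Hmgb2 in members against 5888 in dividing cells, and 2652 CPM of Mmp8 against 16.7.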

How the data were processed

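Droplet 3′ single-cell RNA-seq was measured in 2 libraries, 1 per genotype. The authors deposited raw UMI counts per gene and barcode for 33696 genes. Cell Ranger 8.0.1 made them per the file headers. Per the submitters' processing notes the build was mm39, and the tools listed are Seurat 4.3.0 and another release of Cell Ranger, 6.0.1. No barcode held under 500 UMIs.

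Members, lists and markers were chosen with earlier results of these data known. Counts were summed over members per library and scaled to CPM (pseudocount 1). Shares carry exact Clopper-Pearson intervals, ratios of shares log-normal ones, sums exact Poisson ones and ratios of sums exact conditional binomial ones. Lists used genes with at least 20 summed UMIs. Folds against 0 used 3 counts over the group. PCR copies are collapsed by UMIs, and intervals cover counting error only.

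Named genes were the 12 highest and 12 lowest ratios among genes with, in the higher library, at least 50 UMIs, 50 CPM and a UMI in 5% of members, and with an interval that left out equality. Not eligible were genes of the membership rule, predicted genes, antigen receptor genes (immunoglobulin and T-cell), haemoglobin, sex, ribosomal protein and mitochondrial genes, and other lineages' markers. List members could be named too. Gfi1, Bcl2l1 and similar list members were picked after their values were seen.

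Doublets were kept, as the rule has no such filter, and left out in an alternative (Scrublet in scanpy 1.11.5, run per library, expected rate 0.8% per 1000 barcodes). Free RNA was estimated from S100a8 and S100a9 in B cells (at least 2 UMIs of Cd79a), with the mean of all barcodes as profile. Other alternatives were limits of the rule, thinning to 1000 UMIs, filters, pseudocounts, minimum counts, and edgeR 4.0.16 TMM and DESeq2 1.42.0 scaling. Leaving out haemoglobin UMIs and limiting markers of other lineages to 0.1% were chosen after seeing the data. The interval and naming steps were tested on simulated Poisson sums. Values of 1 gene of the interferon-gamma list are not reported here.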

Additional observations from a re-analysis of the deposited data

How the results depend on the processing

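Under the 10 alternatives that change which cells are counted, the members' share was lower in KO, with log2 ratios from -3.66 to -2.72. It was -2.72 with at most 1% haemoglobin and -2.84 with markers of other lineages at most 0.1%. Members per mature neutrophil, at -3.05 as reported, gave -2.55 with thinned cells, -2.68 with at least 500 genes and at most 10% mitochondrial UMIs, and turned to 0.98 with at most 1% haemoglobin, which left 14 members and 12 mature cells in KO. The count of genes at least 2-fold lower, 1637 as reported, was 3203 with at most 1% haemoglobin, 436 with a pseudocount of 10, 3758 with no minimum and 412 with at least 100 UMIs. For genes at least 2-fold higher, 379 as reported, these were 892, 82, 1120 and 68. The interferon-gamma median, -2.34 as reported, was -1.21 with a pseudocount of 10. The ribosomal protein median of -0.82 became -0.74 and -0.66 with granule shares of at least 1% and 5%, -1.01 with thinned cells, -0.60 without marked doublets, -0.93 and -0.92 with TMM and DESeq2 scaling, -0.52 without haemoglobin UMIs and filter, and -0.57 with other lineages' markers limited. TMM and DESeq2 scaling moved the median of all genes from -0.10 to -0.21 and -0.20, and it turned to 0.033 without haemoglobin UMIs and filter. Apart from what the alternatives' own construction shows, the cause was not tested. Of 324 list medians under alternatives 310 stayed within their spread over genes and 14 moved beyond it, and the 432 values of named genes kept their direction. With 72 cells and 206988 UMIs, the KO library limits the precision of every ratio. No paired analysis was possible because each group has 1 library.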

Other observations

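Some genes of antigen-presenting cells and monocytes were also counted in these cells, and the following were picked after their values were seen. H2-Aa, an MHC class II chain, had 639 UMIs in WT and 6 in KO members (140 and 29.0 CPM, 4.83-fold lower, counting interval 2.21 to 13.2), and H2-Ab1, its partner chain, had 452 and 7. Cd74, the class II invariant chain, was at 245 and 135 CPM. In 1 WT cell alone there were 76 UMIs of H2-Aa and in 1 there were 140 of Cd74. Cst3, the protease inhibitor cystatin C, was at 415 CPM in WT and 116 in KO, 3.58-fold lower (2.40 to 5.602), and 1 WT cell held 231 of its 1894 UMIs. Ly6c2, a surface antigen shared by monocytes and immature neutrophils, was at 904 and 531 CPM, 1.70-fold lower (1.41 to 2.07), and after thinning it was seen in 53.9% of WT members (50.8 to 56.9) and 35.4% of KO members (23.9 to 48.2), against 8.27% and 2.37% of B cells. Whether these UMIs belong to the neutrophils or to other cells in the same droplets was not tested.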
